A study of Homo sapiens with 12 samples.

Results

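The cytosolic ribosomal protein genes were followed across 12 RNA-seq libraries of WI-38 cells, a strain of human diploid lung fibroblasts. They were taken as the protein-coding genes whose RPL or RPS symbol follows the naming of cytosolic ribosomal proteins, together with RPLP0, RPLP1, RPLP2 and RPSA. Whether the product of each gene is part of the mature ribosome was not checked. Pseudogenes and the kinases of the RPS6K family were left out, and RPL36AL, a paralog whose symbol does not match the pattern used, was kept for comparison only. This gave 84 genes of the 57773 listed, 32 of the small subunit and 52 of the large subunit, spread over 21 chromosomes. The rule used names and no measured value.

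There were 3 libraries in each of 4 groups. Proliferating cells received the control siRNA pool siCtrl and were kept for 8 days with the vehicle DMSO (siCtrl_Prolif). The other groups received siCtrl, siNTRK2 or siBDNF and were treated for 8 days with 50 µM etoposide, a topoisomerase II poison that induces senescence (siCtrl_Sen, siNTRK2_Sen and siBDNF_Sen). Every siRNA was a commercial pool used at 25 nM, and all cells came from the same strain at low population doublings. NTRK2 encodes TrkB, the receptor of the neurotrophin BDNF, and the silenced cells address what TrkB signaling does in senescent fibroblasts. The study describes its cell culture experiments in general as repeated independently, with the groups handled together. No label says which libraries share an experiment, and p-values measure the spread between these libraries.

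Each cytosolic ribosome holds a single set of about the same proteins, so their genes are usually expressed together and at high levels. Many of their mRNAs start with a run of pyrimidines, the 5' terminal oligopyrimidine (TOP) motif, through which mTOR and LARP1 control their translation and stability. RPL5 and RPL11, which travel with 5S rRNA, also bind MDM2 and so link ribosome assembly to p53. A few members are paralogs with low or tissue-restricted expression, such as RPL3L in muscle and RPL39L in testis.

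A total of 65 of the 84 members (77.4%) had a TOP start, taken as a C at the annotated start or up to 3 bases beside it followed by at least 4 bases that were each C or T. The same letters were found at 13.5% of 19123 protein-coding starts. The windows below hold 20 bases before and 10 bases from the annotated start of members on which the results turn, read on the coding strand from the GRCh37 genome at GENCODE starts, with the TOP run in capitals. The last 2 windows held no such run.
RPL3 (chr22:39715619-39715648, minus strand): gacccgtaaggccgaccggCCTCTaccggc
RPSA (chr3:39448191-39448220, plus strand): cgtcatttcctgccgcctgtCTTTTCCgtg
RPLP2 (chr11:809947-809976, plus strand): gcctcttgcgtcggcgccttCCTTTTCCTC
RPL41 (chr12:56510397-56510426, plus strand): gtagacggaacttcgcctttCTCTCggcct
RPS28 (chr19:8386360-8386389, plus strand): ggctctccccgaagcacgtgaCTCCTCTCC
RPL39 (chrX:118925584-118925613, minus strand): gctcgttcttccgccagcttCCCTCCTCTT
RPL39L (chr3:186857275-186857304, minus strand): ccctagcatccggggaaatcgcggtcttag
RPL7L1 (chr6:42847334-42847363, plus strand): cgcgccggaagtgcggcgccgtagctagga
A match describes the letters at an annotated start only, and no match says only that they are absent from this window.

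The libraries held between 31567912 and 72328151 counts, of which 1387732 to 3833192 fell on the members. BDNF mRNA was lower with siBDNF by 1.79 on the log2 scale (SE 0.049, n = 3, edgeR adjusted p = 1.72e-18). It was higher with siNTRK2 (0.33, SE 0.046, edgeR adjusted p = 8.35e-06) and was not called in senescence (0.037, SE 0.046). NTRK2 was barely detected, with 7 to 15 counts in siCtrl_Sen, 1 to 11 in siCtrl_Prolif, 10 to 29 in siBDNF_Sen and 0 in each siNTRK2_Sen library. All 9 fibroblast markers were detected, with a summed level of 18136 to 28820 CPM (counts scaled to library size) across libraries, against at most 138 CPM for 5 epithelial, 3.14 CPM for 3 endothelial and 1.95 CPM for 4 immune markers. Of the fibroblast markers, 8 were lower and 1 higher in senescence, 6 were higher and 1 lower with siNTRK2, and 5 were lower and 2 higher with siBDNF. Over all genes tested, 28.3% were lower and 29.8% higher in senescence. These shares were 10.0% and 11.1% with siNTRK2, and 10.2% and 10.3% with siBDNF. Among epithelial markers 3 were higher in senescence and 2 lower with siNTRK2. The 2 endothelial and 2 immune markers that passed the filter on low counts were called higher in senescence, but from very low levels. In siCtrl_Prolif, 3 of the 4 immune and 1 of the 3 endothelial markers had at most 3 counts in every library. Such genes can pass the filter through the senescent groups alone, so these calls were not read as a result. No other marker of these types was called in the 3 comparisons, and the part of all these markers in the results below was not tested. In bulk RNA, a change in the number of cells of a kind and a change in RNA per cell cannot be told apart.

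The members took a smaller share of all counts in the silenced senescent cells than in the controls. Their share was 5.17%, 5.30% and 5.60% in the siCtrl_Prolif libraries and 5.14%, 4.71% and 5.24% in siCtrl_Sen. It was 4.33%, 4.70% and 4.35% in siNTRK2_Sen and 4.40%, 4.30% and 4.47% in siBDNF_Sen. The siBDNF_Sen values all lay below the siCtrl_Sen values, whereas the highest siNTRK2_Sen library nearly reached the lowest siCtrl_Sen library. The group means were 5.36 ± 0.224%, 5.03 ± 0.283%, 4.46 ± 0.204% and 4.39 ± 0.0879% (SD, n = 3) in the same order. A share is a description here and was given no test. Mitochondrially encoded genes, which enter the same totals, took 1.82 ± 0.202% in siCtrl_Prolif, 3.47 ± 0.165% in siCtrl_Sen, 2.65 ± 0.178% in siNTRK2_Sen and 2.07 ± 0.301% in siBDNF_Sen (SD, n = 3).

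Counts of small subunit members relative to those of the large subunit were 0.607 to 0.610 in siCtrl_Prolif and 0.588 to 0.597 in siCtrl_Sen, so that these groups did not overlap. The ratio was 0.580 to 0.590 in siNTRK2_Sen and 0.584 to 0.588 in siBDNF_Sen.

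**Figure D1:**
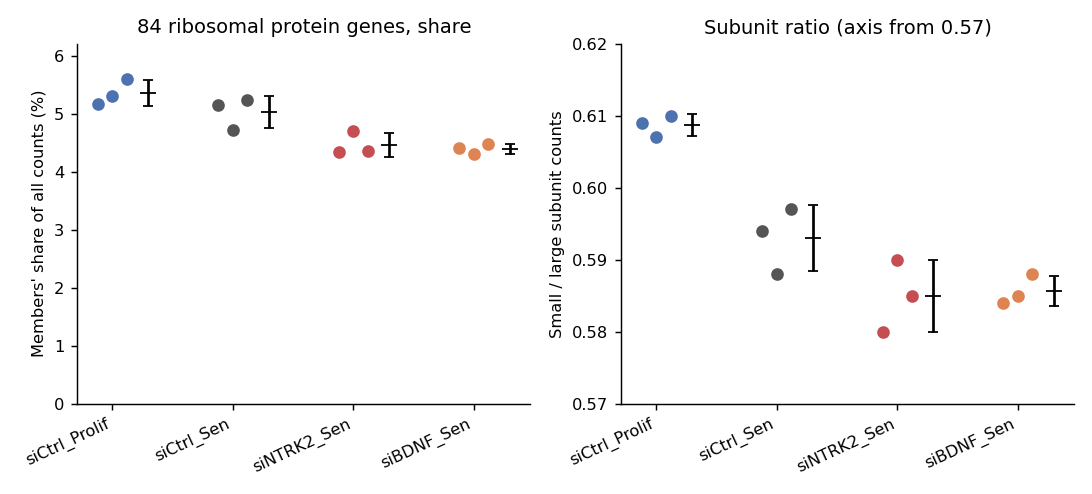
Share of all counts that fell on the 84 members (left, percent) and ratio of small to large subunit counts (right, axis starting at 0.57) in each library, with the group mean and SD (n = 3) as black bars. The siBDNF_Sen shares, 4.30% to 4.47%, lie below those of siCtrl_Sen, and the siCtrl_Prolif ratios, 0.607 to 0.610, lie above all others.

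Members were compared in a fit of all genes with edgeR's quasi-likelihood test, and a gene was called higher or lower at a Benjamini-Hochberg adjusted p under 0.05 over all 21518 genes tested. Of the 84 members, 82 passed the filter on low counts and are those meant by tested members. RPL3L and RPL10L did not, with 0 to 14 and 0 to 3 counts per library. The lowest detectable level, 3 counts, stood for 0.0427 to 0.0916 CPM depending on the library. Levels below are CPM scaled with edgeR's TMM factors. The comparisons of senescence, siNTRK2 and siBDNF all use the siCtrl_Sen libraries, so a deviation of those libraries enters each of them.

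The first comparison asked how the members differ between senescent and proliferating cells with siCtrl. Senescence changed a part of the members and left the median near that of all genes. Of the 82 tested members, 33 were lower and 6 were higher, against 28.3% of all genes lower and 29.8% higher. With upper quartile scaling in place of TMM, 21 were lower and 11 higher, and the median was -0.0075. With a per-gene offset fitted on length and GC content (the length and GC offset below), chosen after seeing the data, 50 were lower and the median was -0.14. The median log2 fold change of the members was -0.07, with a range from -1.63 to 0.22, and that of all genes was 0.02. A single member, RPL39L, also changed by more than 1 on the log2 scale, as did 16.7% of all genes. In 30 of the 82 members (36.6%) the libraries of the groups did not overlap, against 61.3% of all genes. The median was -0.11 without siCtrl_Prolif replicate 1, -0.027 without siCtrl_Prolif replicate 3, -0.031 without siCtrl_Sen replicate 2 and -0.12 without siCtrl_Sen replicate 3.

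The largest decrease was in RPL39L, a paralog of the peptide exit tunnel protein RPL39. Its level was 8.99, 7.39 and 7.93 CPM in siCtrl_Prolif and 3.05, 2.43 and 2.39 CPM in siCtrl_Sen. The groups did not overlap, and RPL39L fell by 67.6% (log2 fold change -1.63, SE 0.13, adjusted p = 1.05e-10). RPL39 itself was not called (0.12, SE 0.065).

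RPL22L1, the paralog of the 60S protein RPL22, was at 76.8, 77.9 and 79.1 CPM in siCtrl_Prolif and at 38.7, 40.6 and 41.9 CPM in siCtrl_Sen. It was lower in every senescent library and fell by 48.1% (log2 fold change -0.95, SE 0.059, adjusted p = 5.39e-13). RPL22 also fell, by 11.1% (-0.17, SE 0.046). RPL26L1 went from 33.7, 34.9 and 34.1 CPM to 23.2, 23.1 and 24.2 CPM, and fell by 31.3% (-0.54, SE 0.058), whereas its parent RPL26 was not called (0.04, SE 0.064). RPL7L1 (-0.15, SE 0.047) and its parent RPL7 (-0.27, SE 0.053) were both lower, the former not without siCtrl_Sen replicate 1. RPS27L, a p53-inducible paralog, and its parent RPS27 were not called, at -0.03 and 0.06. Of the 8 paralogs listed, which include RPL36AL, 6 were tested and 4 were lower, against 28.3% of all genes.

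**Figure D2:**
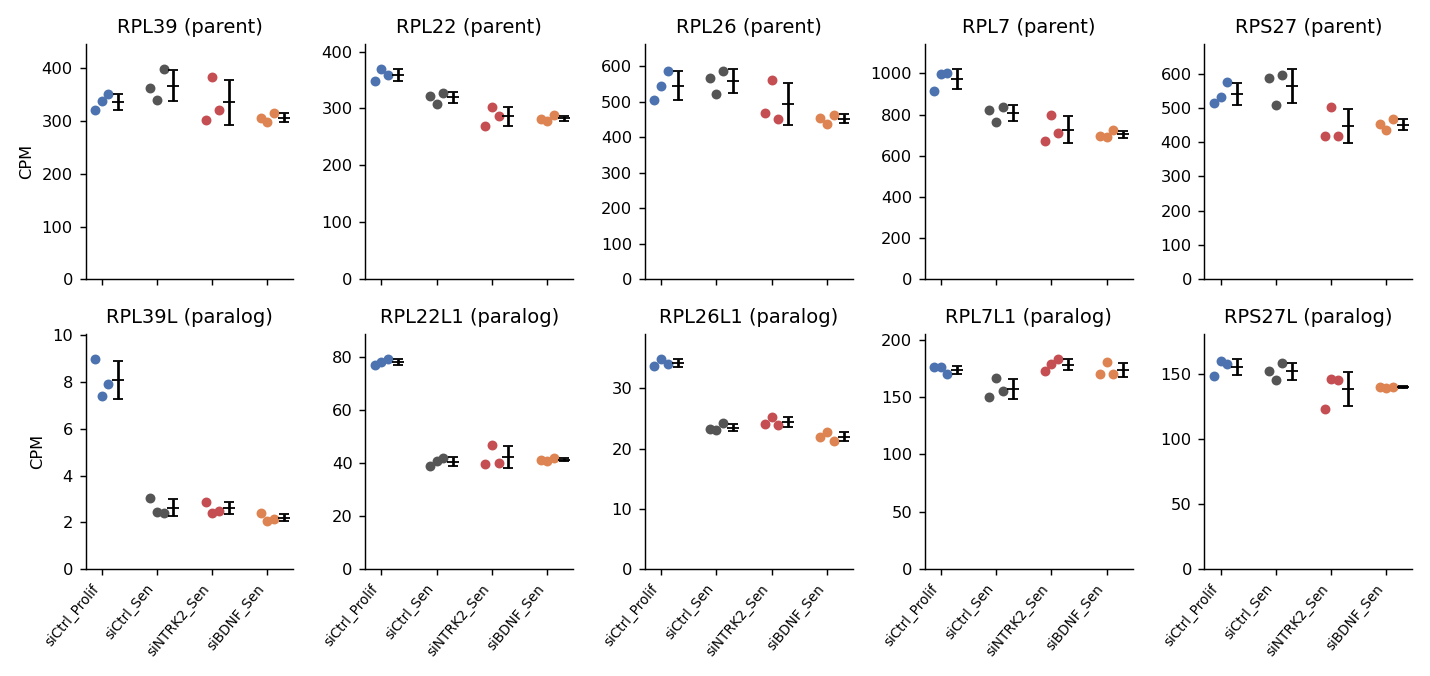
Level in CPM of 5 parent genes (top) and their paralogs (bottom) in each library, with the group mean and SD (n = 3) as black bars and every axis starting at 0. RPL39L, RPL22L1 and RPL26L1 are lower in all 9 senescent libraries than in the siCtrl_Prolif libraries.

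Among the abundant members, RPL3, which reaches the peptidyl transferase center, showed the largest decrease. Its level was 1753, 1786 and 1912 CPM in siCtrl_Prolif and 1273, 1132 and 1261 CPM in siCtrl_Sen. It fell by 32.8% with no overlap between the groups (-0.57, SE 0.046, adjusted p = 8.9e-11). RPSA, the laminin receptor protein of the small subunit, went from 1357, 1402 and 1498 CPM to 1083, 938 and 1092 CPM, and fell by 26.9% (-0.45, SE 0.051, adjusted p = 4.12e-08). RPS2 (-0.44, SE 0.060), RPS23 (-0.41, SE 0.055) and RPS9 (-0.37), which line the mRNA entry or the decoding site, were also lower and were picked after their values were seen.

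Of the 7 listed members of the mRNA channel and decoding site, which do not include RPS9, 3 were lower and 2, RPS26 and RPS28, were higher. Over all genes, 28.3% were lower and 29.8% higher, shares that apply to each list in this paragraph. Of the 9 members of the exit tunnel and its opening, 1 was lower and 8 were not called. RPL5 fell by 22.6% (-0.37, SE 0.046), while its partner RPL11 was not called (0.03, SE 0.055). In the P stalk, which recruits translation factors, RPLP0 (-0.18, SE 0.054) and RPLP1 (-0.13, SE 0.052) were lower and RPLP2 was not called (0.02, SE 0.055). RPLP1 was not called without siCtrl_Sen replicate 2 or siCtrl_Prolif replicate 3, and the latter gave -0.082. RPS6, the target of S6 kinases, was lower (-0.19, SE 0.057), as were RPL10 (-0.30, SE 0.049) and RPL36A (-0.30, SE 0.066). Of 10 genes mutated in Diamond-Blackfan anemia, an inherited anemia of impaired ribosome synthesis, 2 were higher and 2 lower.

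The increases were small. RPL41, which encodes the shortest ribosomal protein, was at 841, 911 and 977 CPM in siCtrl_Prolif and at 1070, 959 and 1148 CPM in siCtrl_Sen. These ranges overlapped, and the gain was 16.4% (0.22, SE 0.063, adjusted p = 0.00455). RPS21 (0.20), RPS26 (0.19), RPS28 (0.16) and RPL27 (0.16) made up the rest of the 5 largest increases, and RPS19 (0.15) was the sixth. RPL27 was at 0.10 without siCtrl_Prolif replicate 1 and at 0.080 without siCtrl_Sen replicate 3, and its call was also lost without siCtrl_Prolif replicate 2 or siCtrl_Sen replicate 1. RPL41 was not called without siCtrl_Prolif replicate 1 or siCtrl_Sen replicate 3, nor RPS21 and RPS28 without siCtrl_Prolif replicate 2 or siCtrl_Sen replicate 3. The members called higher were 3, 2 and 10 without siCtrl_Prolif replicate 1, 2 or 3, and 11 and 1 without siCtrl_Sen replicate 2 or 3.

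**Figure D3:**
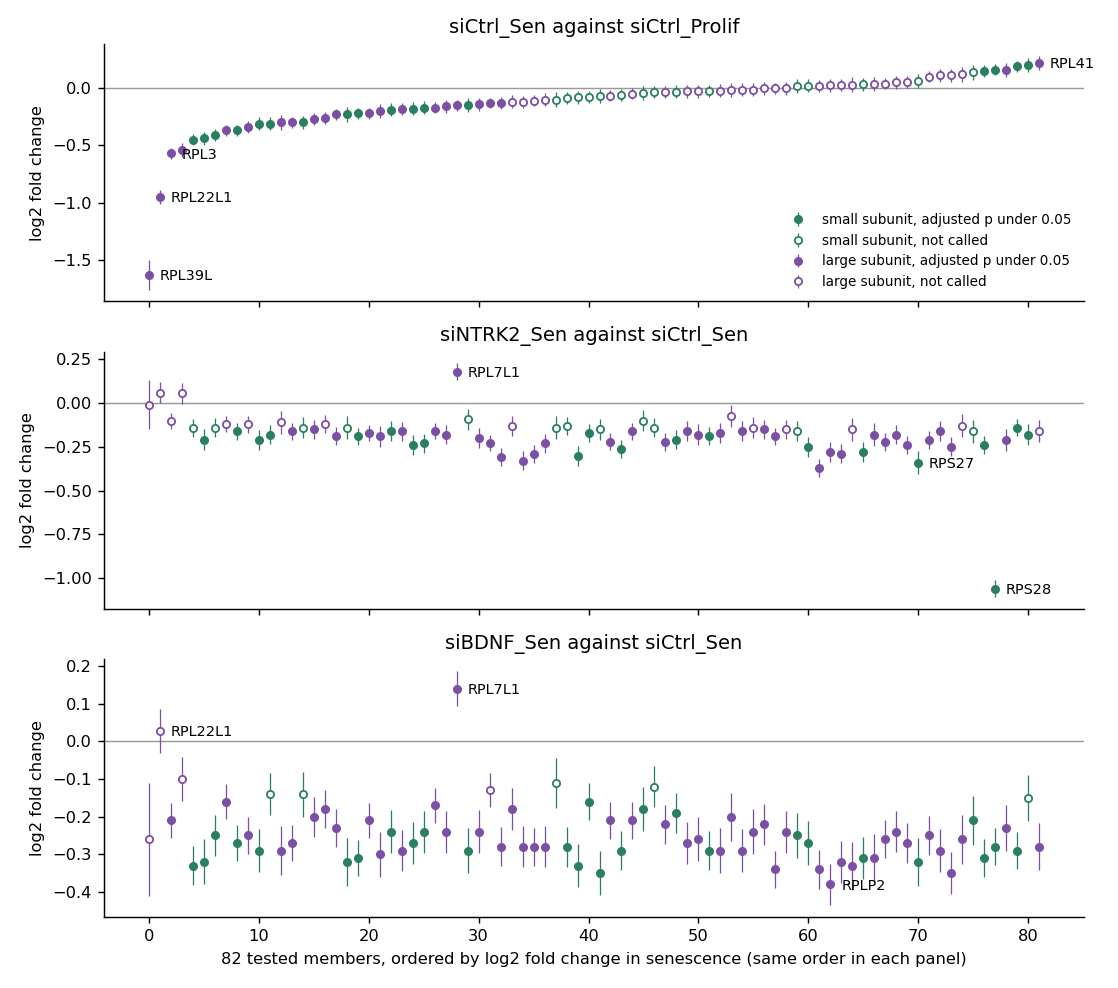
Log2 fold change (± SE) of the 82 tested members in the senescence, siNTRK2 and siBDNF comparisons, from the fit of all genes, in 1 order and with an axis of its own in each panel. Filled points passed an adjusted p under 0.05. RPL39L (-1.63) and RPL22L1 (-0.95) lie apart in the first panel and RPS28 (-1.06) in the second, and nearly all members lie under 0 in the third.

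The second comparison asked how the members differed between senescent cells with siNTRK2 and with siCtrl. Most members were lower with siNTRK2 by a small amount, and RPS28 was lower by far more than the others. Of the tested members, 54 were lower and 1 was higher, against 10.0% of all genes lower and 11.1% higher. The median was -0.17, or 11.2% lower, and that of all genes was -0.0024. A total of 79 members had a negative value. The members share the same libraries, so counts of members here and below are not independent evidence of a shift. RPS28 was the only member past a log2 fold change of 1, a size that 0.957% of all genes passed. In 33 of the 82 members (40.2%) the groups did not overlap, against 32.8% of all genes.

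This count depended on single libraries. The median member of siNTRK2_Sen replicate 2 was 0.08 below the siCtrl_Sen mean on the log2 scale, against 0.23 and 0.22 for replicates 1 and 3. That of siCtrl_Sen replicate 2 was 0.11 below it, so the groups overlapped by this measure. Without siCtrl_Sen replicate 3, 22 members were called lower, and 28 without siCtrl_Sen replicate 1. It was 33 without siNTRK2_Sen replicate 1, 34 without replicate 3 and 71 without replicate 2. The median stayed between -0.22 and -0.13 when any library was left out.

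RPS28, a short protein of the small subunit beside the mRNA exit channel, was at 340, 306 and 348 CPM in siCtrl_Sen and at 159, 159 and 157 CPM in siNTRK2_Sen. It was at 295, 283 and 310 CPM in siCtrl_Prolif and at 275, 263 and 282 CPM in siBDNF_Sen. The siNTRK2_Sen libraries thus lay far below all 9 others, with no overlap. RPS28 fell by 52.2% with siNTRK2 (log2 fold change -1.06, SE 0.050, adjusted p = 1.28e-13). Among 1974 genes with a mean over 100 CPM, 2 had a lower value in this comparison. Its value ranged from -1.11 to -0.97 over all alternatives and was called in each.

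RPS28 shares its coding sequence with processed pseudogenes that were counted as genes of their own. The 210 coding bases of RPS28 from GENCODE, on chromosome 19, are shown because reads that lie within them can match more than 1 copy, with the single base that differs in RPS28P4 in capitals.
RPS28 coding sequence: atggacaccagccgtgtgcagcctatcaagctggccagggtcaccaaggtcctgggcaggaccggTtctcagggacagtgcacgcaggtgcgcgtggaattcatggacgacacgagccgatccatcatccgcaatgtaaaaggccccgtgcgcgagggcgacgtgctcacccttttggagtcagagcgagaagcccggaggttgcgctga
All 210 bases were found unchanged in RPS28P7 (chr11:82400601-82400810), and 209 of 210 in RPS28P4 (chr2:232120810-232121019). Counts of these rows may therefore come from RPS28 mRNA and the other way around.

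RPS28P7 was at 66.9, 58.3 and 68.8 CPM in siCtrl_Sen and at 27.9, 29.0 and 29.7 CPM in siNTRK2_Sen (log2 fold change -1.16, SE 0.060). RPS28P4 went from 1.94, 1.72 and 1.78 CPM to 0.873, 1.07 and 0.950 CPM (-0.92, SE 0.20). Both rows moved down without overlap, like RPS28. NDUFA7, which lies head to head with RPS28 on the other strand and overlaps its annotated span (RPS28 at chr19:8386042-8388224, NDUFA7 at chr19:8373652-8386259), was at 31.2, 28.1 and 33.0 CPM in siCtrl_Sen and 28.8, 30.3 and 29.9 CPM in siNTRK2_Sen and was not called (-0.05, SE 0.069). These 3 genes were chosen after the RPS28 values were seen.

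**Figure D4:**
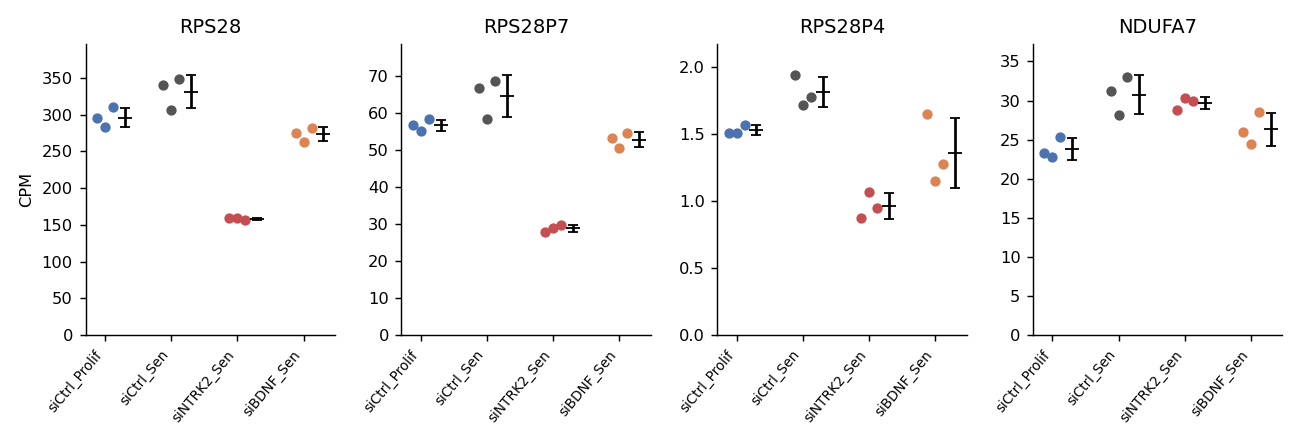
Level in CPM of RPS28, the pseudogene rows RPS28P7 and RPS28P4, and NDUFA7 in each library, with the group mean and SD (n = 3) as black bars and axes starting at 0. RPS28 sits at 157 to 159 CPM in siNTRK2_Sen and at 263 CPM or more in every other library, the pseudogene rows are lowest in the same libraries, and NDUFA7 overlaps between siNTRK2_Sen and siCtrl_Sen.

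After RPS28 the decreases were graded and small. RPL13, a 60S protein, went from 964, 844 and 945 CPM to 759, 715 and 712 CPM without overlap and fell by 20.6% (-0.33, SE 0.055, adjusted p = 8.01e-05). RPS27, a small subunit protein with a zinc finger, went from 588, 508 and 596 CPM to 418, 503 and 417 CPM without overlap, siNTRK2_Sen replicate 2 lying just under the lowest control (-0.34, SE 0.064, adjusted p = 0.000429). RPLP1 (-0.31, SE 0.052) was also among the 5 largest decreases. All 3 P stalk genes were lower, including RPLP2 (-0.28, SE 0.055) and RPLP0 (-0.16, SE 0.054). RPL11 was lower (-0.29, SE 0.055), and its partner RPL5 was at -0.12 (SE 0.046, adjusted p = 0.0691).

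None of the 6 tested paralogs was called lower. RPL7L1 was the single member called higher, from 150, 167 and 155 CPM to 173, 179 and 183 CPM, without overlap (0.18, SE 0.047, adjusted p = 0.00612). It was not called without siCtrl_Sen replicate 1. RPL22L1 (0.06, SE 0.059), RPL26L1 (0.06, SE 0.059), RPL39L (-0.0090, SE 0.14) and RPS27L (-0.14, SE 0.055) were not called. Of their parents, RPL7 (-0.15), RPL22 (-0.16), RPL26 (-0.18) and RPS27 were lower and RPL39 was not called (-0.13). RPL3 (-0.10) was not called and RPL10 was lower (-0.16). RPS4X (-0.26) and RPS6 (-0.16) were lower as well. RPL7, RPL10, RPL22, RPL26, RPLP0 and RPS6 each lost their call without siCtrl_Sen replicate 1, without siCtrl_Sen replicate 3 and without at least 1 siNTRK2_Sen library, and RPL26 was at -0.27 without siNTRK2_Sen replicate 2. MKI67, a proliferation marker picked after its values were seen, was at 1.64, 1.38 and 0.814 CPM in siCtrl_Sen, 4.35, 3.85 and 4.36 CPM in siNTRK2_Sen, 1.95, 2.79 and 2.30 CPM in siBDNF_Sen and 15.8 to 16.9 CPM in siCtrl_Prolif. It was higher with siNTRK2 (1.72, SE 0.17) and with siBDNF (0.91, SE 0.18). LMNB1 and CDKN1A, which were at -4.20 and 1.62 in senescence, were also picked after their values were seen. With siNTRK2 they were at 0.62 (SE 0.12) and -0.50 (SE 0.041), both called. With siBDNF they were at -0.18 (SE 0.13) and -0.043 (SE 0.041), neither called. The part of these genes in the results was not tested.

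The third comparison asked the same for siBDNF against siCtrl. Nearly all members were lower, by similar amounts. Of the tested members, 72 were lower and 1 was higher, against 10.2% of all genes lower and 10.3% higher. The median was -0.26, or 16.7% lower, and that of all genes was 0.0040. The values ran from -0.38 to 0.14, 80 of them were negative, and no member passed a log2 fold change of 1, against 0.609% of all genes. In 75 of the 82 members (91.5%) the groups did not overlap, against 37.3% of all genes. The number of members called lower was 60 to 76 when any library was left out. With the length and GC offset, 66 were lower and the median was -0.16.

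The largest decrease was in RPLP2, a P stalk protein, which went from 440, 374 and 426 CPM to 312, 313 and 325 CPM. It fell by 23.4% without overlap (-0.38, SE 0.055, adjusted p = 1.5e-05). RPL37A, a 60S protein, went from 831, 746 and 875 CPM to 650, 623 and 657 CPM and fell by 21.3% (-0.35, SE 0.055, adjusted p = 6.32e-05). RPL28, also of the 60S subunit, went from 535, 483 and 557 CPM to 420, 409 and 414 CPM (-0.34, SE 0.050, adjusted p = 2.11e-05). Both were among the 5 largest decreases and did not overlap between the groups. RPS28 was at -0.28 (SE 0.049), near the median of the members.

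Most members of the lists by structure and disease were lower, against 10.2% of all genes. All 3 P stalk genes, both RPL5 (-0.16) and RPL11 (-0.32), all 9 exit tunnel members and all 7 members of the mRNA channel and decoding site were lower, as were 9 of the 10 Diamond-Blackfan anemia genes. The small subunit median was -0.28 with 27 of 32 lower, and the large subunit median was -0.26 with 45 of 50 lower. RPL3 (-0.21), RPL10 (-0.27), RPSA (-0.33), RPS6 (-0.24), RPS27A (-0.18), whose protein is made as a fusion with ubiquitin, RPL41 (-0.28) and RPS4X (-0.29) were all lower. The calls of RPL5 and RPS27A were lost without siCtrl_Sen replicate 3 and without siBDNF_Sen replicate 1 or 2, and that of RPS27A also without siCtrl_Sen replicate 1.

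Most paralogs again were not called. RPL7L1 went from 150, 167 and 155 CPM to 170, 181 and 170 CPM (0.14, SE 0.047, adjusted p = 0.0311), a call that was lost without siCtrl_Sen replicate 1 or 3 or any siBDNF_Sen library. RPL22L1 (0.03, SE 0.059), RPL26L1 (-0.10, SE 0.059), RPS27L (-0.12, SE 0.055) and RPL39L (-0.26, SE 0.15) were not called. RPL36AL, with 138, 127 and 143 CPM in siCtrl_Sen and 115, 114 and 122 CPM in siBDNF_Sen, was lower without overlap (-0.22, SE 0.054, adjusted p = 0.00473). The parents RPL7 (-0.20), RPL22 (-0.17), RPL26 (-0.31), RPS27 (-0.32), RPL39 (-0.26) and RPL36A (-0.29) were all lower. Of these, RPL7, RPL22 and RPL39 were not called without siCtrl_Sen replicate 3, nor RPL22 without siBDNF_Sen replicate 2.

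**Figure D5:**
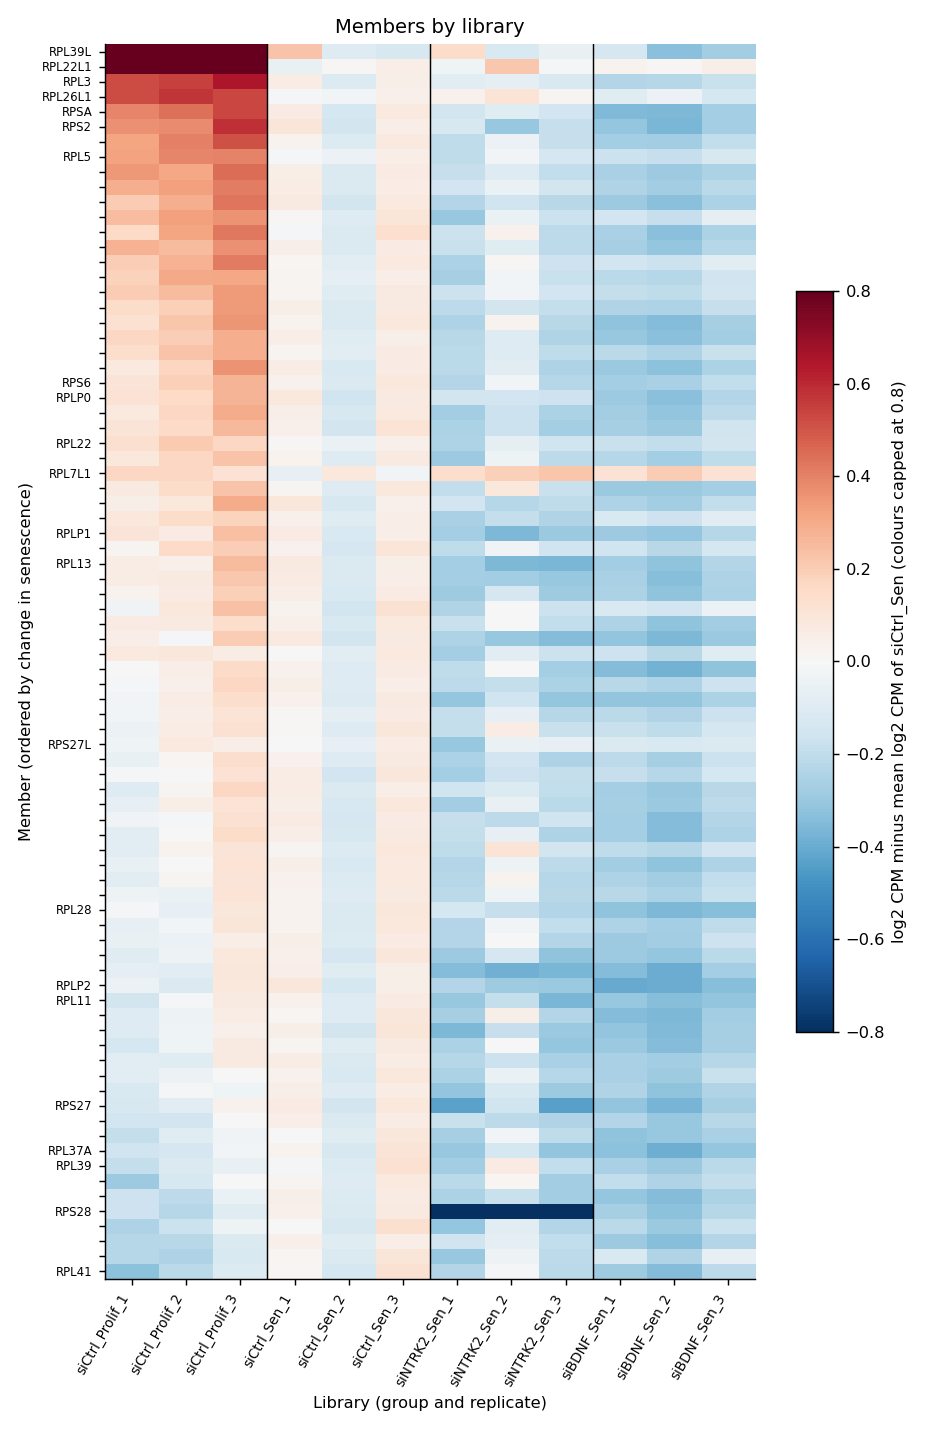
Level of each tested member (rows, ordered by change in senescence) in each library (columns) as log2 CPM minus the mean log2 CPM of siCtrl_Sen, with colors capped at 0.8 and names beside a part of the members described in the text. RPS28 stands out in the 3 siNTRK2_Sen libraries, RPL39L, RPL22L1 and RPL3 are high in siCtrl_Prolif, and siNTRK2_Sen replicate 2 is paler than the other libraries of its group.

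The silenced groups were then compared with each other. RPS28 was lower with siNTRK2 than with siBDNF and was the 1 member called so, at -0.79 on the log2 scale (SE 0.050, adjusted p = 1.79e-11), against 7.86% of all genes. A total of 6 members were higher, against 8.84% of all genes. Among them were RPS25 and RPSA at 0.20, RPS12 at 0.16, and RPL28 and RPS26 at 0.15. The median was 0.06, or 0.019 without siNTRK2_Sen replicate 2, no member passed a log2 fold change of 1, against 1.16% of all genes, and 75 members were not called. RPSA, at 934, 967 and 929 CPM in siNTRK2_Sen and 809, 807 and 856 CPM in siBDNF_Sen, did not overlap and was called in every alternative. Without siNTRK2_Sen replicate 2 or siBDNF_Sen replicate 1 or 2, 1 member was called higher, and 2 without siBDNF_Sen replicate 3 or with library totals. The count was 17 without the filter on low counts, 15 with only the compared groups fitted and 11 with the length and GC offset. RPSA was at 0.18 to 0.22 when any library was left out, whereas RPS25 went to 0.11 and RPS12 to 0.10 without siNTRK2_Sen replicate 2, and both lost their call there and without any siBDNF_Sen library. RPL28 lost its call without any 1 of these libraries other than siNTRK2_Sen replicate 3.

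Members with and without a TOP start had like medians. The medians of the 65 with a TOP start and the 17 tested without were -0.07 and -0.08 in senescence, -0.17 and -0.17 with siNTRK2, and -0.26 and -0.26 with siBDNF. Across the members, the log2 fold change had a Spearman's rho of 0.06 with the GC content of the transcript in senescence, -0.44 with siNTRK2 and -0.45 with siBDNF (n = 82 genes, which share the same libraries). Over 20084 tested genes with an annotated transcript these values were 0.17, -0.18 and -0.21. With transcript length, rho was -0.26, 0.05 and 0.21 for the members and -0.05, 0.17 and 0.28 for all tested genes. Members had a median transcript of 827 bases against 2580 for all tested genes. With the length and GC offset, the medians were -0.14, -0.12 and -0.16 in senescence, siNTRK2 and siBDNF, and 50, 45 and 66 members were lower.

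Per kilobase of the annotated transcript, the members differed widely in level. In siCtrl_Sen, RPS18 was highest at 2156 CPM per kilobase, followed by RPLP0 at 1610 and RPS27 at 1602, which differed by less than their spread between libraries. RPS2 was first in siCtrl_Prolif at 2122, but RPS18 was at 2105 there, which differed by less than their spread between libraries. In siCtrl_Sen, RPS2 was lower in the order, at 1562. The paralogs took the lowest places, with RPL7L1 at 34.9, RPL26L1 at 32.6, RPS27L at 24.8, RPL22L1 at 21.3 and RPL39L at 3.60, and RPL3L and RPL10L under 0.1. These orders rest on annotated lengths, which reached 7573 bases for RPL37 and 1330 bases for RPS28, far longer than the coding sequence.

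Other genes of the pathway were taken from lists made by role. Of 4 genes for ribosomal proteins outside the name rule, 1 was lower and 1 higher in senescence, 3 were lower with siNTRK2 and 4 with siBDNF. RACK1, a scaffold on the small subunit, was lower in each comparison (-0.27 in senescence, -0.17 with siNTRK2, -0.25 with siBDNF), and FAU was lower with both siRNAs (-0.18 and -0.20). With siNTRK2 neither RACK1 nor FAU was called without siCtrl_Sen replicate 1 or 3 or siNTRK2_Sen replicate 3, and with siBDNF FAU was not called without siCtrl_Sen replicate 1 or 3 or siBDNF_Sen replicate 1 or 2. Of 18 other genes listed as having TOP mRNAs, 12 were lower in senescence, 10 with siNTRK2 and 11 with siBDNF, and 3, 0 and 0 were higher. The list was not made with the TOP start defined above, and EEF1G and HNRNPA1 had none by that rule. EEF1A1, the main elongation factor, was at -0.41, -0.29 and -0.18, and PABPC1, the poly(A) binding protein, at -0.26, -0.13 and -0.22. Of 11 snoRNA host genes, 6 were higher and 1 lower in senescence, and 7 and 5 were lower with siNTRK2 and siBDNF.

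Genes for ribosome synthesis were counted in the same way, without a test against the members. Over all genes, 28.3% were lower and 29.8% higher in senescence, 10.0% and 11.1% with siNTRK2, and 10.2% and 10.3% with siBDNF, shares that apply to every list here. Of 14 genes of RNA polymerase I and its factors, 11 were lower and 1 higher in senescence, 5 were higher and none lower with siNTRK2, and 4 were higher and 1 lower with siBDNF. UBTF, which activates rRNA genes, was at -0.22, 0.20 and 0.19 in senescence, siNTRK2 and siBDNF. Of 42 assembly factors, 24 were lower and 10 higher in senescence, 14 were higher and 3 lower with siNTRK2, and 5 were higher and 7 lower with siBDNF. FBL, the methyltransferase of rRNA, fell by 1.22 on the log2 scale in senescence (SE 0.057). UTP20 was at -0.95, 0.60 and 0.51. Of 16 tested regulators, 5 were higher and 4 lower in senescence, 1 was higher and 4 lower with siNTRK2, and 3 were higher and 1 lower with siBDNF. LARP1 was higher with both siRNAs (0.29 and 0.17), and EIF4EBP1 was lower in senescence (-1.18).

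The 76 mitochondrial ribosomal protein genes, which build a separate ribosome, had medians of -0.09, -0.05 and -0.11. In senescence 33 of them were lower, with siNTRK2 14 and with siBDNF 19, against 33, 54 and 72 of the 82 cytosolic members. No test of the difference between these lists was made.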

How the data were processed

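Poly(A)-selected RNA of 12 WI-38 libraries was sequenced in paired-end mode. Per the labels and the study's methods, the authors demultiplexed with bcl2fastq 2.20.0.422, trimmed adapters with Cutadapt, aligned to hg19 (GRCh37) with STAR 2.4.0j and made gene counts with featureCounts 1.6.4. The deposited values are these raw counts, 1 file per library, without normalization. Whether counting used the strand, and how reads with several matches were treated, is not given in the sources used here, so members with near-identical pseudogene copies are uncertain. A total of 55538 of 57773 identifiers matched a symbol.

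Counts were fitted in R 4.3.3 with edgeR 4.0.16 (filterByExpr, TMM, quasi-likelihood test, 1 term for each of the 4 groups, all 12 libraries), with Benjamini-Hochberg adjustment over 21518 genes. An SE is the log2 fold change over the square root of F. The main threshold was an adjusted p under 0.05, since the study's further cutoff, a log2 fold change over 1, passed few members. DESeq2, the tool named in the study's methods, was an alternative (version 1.42.0 here), with other scalings, filters, sample subsets and a replicate block. Scripts were tested on simulated data. Sequences and lengths came from GRCh37 with GENCODE v44lift37. Genes named in the text were the 5 largest increases and decreases among called members of each comparison and members listed by role. Other names were picked after their values were seen, including the examples from each list. Some genes enter every fit and count and are not reported here by name. The members and lists were chosen with earlier results of these data known. Libraries held 31567912 to 72328151 counts, and a floor of 3 counts covers counting error only. Libraries of the same group differed by more than counting noise (chi-square per gene 3.92 to 13.6), so none was a duplicate.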

Additional observations from a re-analysis of the deposited data

Results flagged for a closer look

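The silenced groups differed from each other in 7 members by the direct edgeR comparison of siNTRK2_Sen with siBDNF_Sen. With siNTRK2, 6 were higher and 1 was lower, against 8.84% and 7.86% of all genes. Without siNTRK2_Sen replicate 2 or siBDNF_Sen replicate 1 or 2, 1 member was called higher. RPS28 was lower with siNTRK2, with a log2 difference of -0.79, in 3 of 3 libraries. Among the others, RPS25 and RPSA were higher by 0.20, RPS12 by 0.16, and RPL28 and RPS26 by 0.15. Without siNTRK2_Sen replicate 2, RPS25 was at 0.11 and RPS12 at 0.10, whereas RPSA kept 0.18 to 0.22 when any library was left out. Single deviating libraries were not tested for in these groups of 3.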

How the results depend on the processing

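Most results kept their direction and call. Of 1328 values of 83 named results under the alternatives, 1166 kept both, 118 lost and 19 gained a call, and 25 changed sign, none of them called in the fit reported. With the replicate block, 35, 53 and 73 members were lower in senescence, siNTRK2 and siBDNF, and 5 were higher with siNTRK2 than with siBDNF. No source ties a number to an experiment, and same-numbered libraries correlated over 0.1 in 6 of 18 pairs, and 5 of 12 libraries were closest to their own number.

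In senescence 11 members were higher with library totals, with upper quartile scaling and with at least 10 counts in every library. With upper quartile scaling 21 were lower and the median was -0.0075, and with the length and GC offset, chosen after seeing the data, 50 were lower and the median was -0.14. That offset gave a median of -0.16 with siBDNF, and upper quartile scaling left 0 higher there. Past a log2 fold change of 1, the members higher and lower were 0 and 1 in senescence, 0 and 1 with siNTRK2, 0 and 0 with siBDNF, and 0 and 0 between the siRNAs. Between the siRNAs, 2 members were higher with library totals, 17 without the filter, 15 with only the compared groups fitted and 11 with the offset, and 2 were lower with library totals and with the offset. Leaving out each library in turn, 1 to 11 were higher in senescence, 0 to 1 higher and 22 to 71 lower with siNTRK2, 0 to 1 higher with siBDNF, and 1 to 9 higher between the siRNAs. The cause of these shifts was not tested.

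With pseudogene rows added, the members' shares were 5.83%, 5.50%, 4.89% and 4.80% in siCtrl_Prolif, siCtrl_Sen, siNTRK2_Sen and siBDNF_Sen, and without mitochondrial genes in the total the last was 4.48%. Uncalled values that changed sign in senescence were RPL11 (-0.032), RPL26 (-0.012), RPLP2 (-0.15), RPS27 (-0.081) and RPS27L (0.090) with the offset, and RPS27L with library totals (0.0028), upper quartile scaling (0.032) and at least 10 counts (0.0005). RPL26L1 was at 0.012 with siBDNF and RPL39L at 0.093 with siNTRK2 under the offset, and RPL39L at 0.0095 with library totals and 0.0055 without the filter. Leaving out each library, RPL11 ranged from -0.045 to 0.077, RPL26 from -0.032 to 0.087 and RPLP2 from -0.035 to 0.079 in senescence, RPL22L1 from -0.014 to 0.10 and RPL39L from -0.10 to 0.11 with siNTRK2, and RPL22L1 from -0.0033 to 0.057 with siBDNF.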
